A study of Mus musculus with 6 samples.

Results

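The RNAs described here are the small nucleolar RNAs (snoRNAs) and small Cajal body RNAs (scaRNAs) counted in mouse embryonic stem cells and in the epiblast-like cells derived from them. They were all gene rows with the biotype snoRNA or scaRNA in the GENCODE M21 annotation of GRCm38 and a total of at least 60 counts over the 6 libraries. This gave 218 RNAs of 51826 Ensembl rows. The annotation marks 1558 rows as snoRNA or scaRNA, of which 1147 were at 0 in every library and 193 had 1 to 59 counts. Members were selected on this total count alone, so their abundance is given as a description. Of the 218 RNAs, 115 were C/D snoRNAs, 81 were H/ACA snoRNAs, 13 were scaRNAs and 9 fell in no class. Symbols gave the class for 62 RNAs named Snord and 28 named Snora, and sequence boxes were used for the 115 RNAs with other names.

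Total RNA was sequenced from wild-type V6.5 cells, which are 1 mouse embryonic stem cell line. The 3 embryonic stem cell libraries (ESC1, ESC2 and ESC3) came from cells kept with LIF, a cytokine that sustains self-renewal, and 2i, a pair of inhibitors of GSK3 and MEK. The 3 epiblast-like cell libraries (EpiLC1, EpiLC2 and EpiLC3) came from V6.5 cells at day 3 without LIF and without 2i. Both groups were grown in the same serum-containing base medium, and ribosomal RNA was depleted before stranded library preparation. Nothing in the labels says that the replicates came from separate cultures, so p-values measure only the spread between these samples. The libraries held 9710410 to 22879812 counts, with ESC1 and ESC2 the deepest. All 6 listed naive pluripotency genes were lower and all 4 listed EpiLC markers were higher in the EpiLC libraries (edgeR, adjusted p under 0.05). The summed level of 6 fibroblast marker genes was 3.48 to 4.24 counts per 1e6 (CPM) in ESC and 13 to 17 CPM in EpiLC, and its part in the results was not tested.

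SnoRNAs guide chemical marks onto other RNAs by base pairing. C/D snoRNAs carry a C box and a D box, assemble with fibrillarin (Fbl), Nop56, Nop58 and Snu13, and direct 2′-O-methylation of ribosomal RNA. H/ACA snoRNAs fold into hairpins that end in an ACA box, assemble with dyskerin (Dkc1), Nhp2, Nop10 and Gar1, and direct pseudouridylation. ScaRNAs use the same boxes in Cajal bodies, where they guide modification of spliceosomal RNAs. Most mammalian snoRNAs are released from the introns of a host gene after splicing, and the rest of the intron is degraded.

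The C/D sequences shown first carry the comparison inside and between host genes. They were read from the GENCODE M21 transcripts (GRCm38), 5′ to 3′ as DNA letters. Capitals mark the C box, TGATGA with at most 1 mismatch in the first 20 letters, and the D box, CTGA in the last 20 letters. Gm22357 (chr1:161036057-161036139, plus strand), Snord47 (chr1:161038082-161038158, plus strand), Gm23212 (chr1:161036682-161036741, plus strand) and Snord78 (chr1:161036984-161037049, plus strand) all lie inside Gas5. Gm24452 lies inside Snhg1 (chr19:8724531-8724602, plus strand) and Snord64 lies inside Gm38393 (chr7:59978808-59978874, minus strand).
Gm22357: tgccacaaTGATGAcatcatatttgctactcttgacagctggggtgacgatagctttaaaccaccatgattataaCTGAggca
Snord47: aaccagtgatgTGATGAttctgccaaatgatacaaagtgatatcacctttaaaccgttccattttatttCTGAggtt
Gm23212: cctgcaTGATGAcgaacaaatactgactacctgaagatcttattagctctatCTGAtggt
Snord78: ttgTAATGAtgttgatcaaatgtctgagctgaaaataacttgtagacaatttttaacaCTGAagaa
Gm24452: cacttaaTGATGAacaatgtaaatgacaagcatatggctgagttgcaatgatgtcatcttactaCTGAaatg
Snord64: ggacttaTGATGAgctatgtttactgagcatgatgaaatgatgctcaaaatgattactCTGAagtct

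An exact TGATGA stood in the first 20 letters of 71.3% of the C/D RNAs and 1.2% of the H/ACA RNAs. CTGA stood in the last 20 letters of 98.3% and 8.6%. These letters were searched on the RNA strand only, and they helped to define the classes. Of the 62 RNAs named Snord, 58 had C/D boxes, and 27 of the 28 named Snora had an ACA 3 to 7 letters from the 3′ end.

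The H/ACA sequences shown are the most abundant RNA of the class, its near-identical neighbour and the leading RNA of Eif4a2. Capitals mark the ACA box. Snora73b (chr4:132352322-132352526, minus strand) and Snora73a (chr4:132352775-132352979, minus strand) share 198 of 205 letters, so the counting of reads could split them. Gm26447 lies inside Eif4a2 (chr16:23111301-23111429, plus strand).
Snora73b: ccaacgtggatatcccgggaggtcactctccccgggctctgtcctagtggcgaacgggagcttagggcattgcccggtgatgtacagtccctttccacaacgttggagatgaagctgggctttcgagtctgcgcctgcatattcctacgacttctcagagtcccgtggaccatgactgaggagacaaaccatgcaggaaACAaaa
Snora73a: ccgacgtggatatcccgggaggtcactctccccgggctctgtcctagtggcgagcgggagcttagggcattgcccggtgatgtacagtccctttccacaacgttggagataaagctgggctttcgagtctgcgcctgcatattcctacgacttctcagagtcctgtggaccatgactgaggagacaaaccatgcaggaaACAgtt
Gm26447: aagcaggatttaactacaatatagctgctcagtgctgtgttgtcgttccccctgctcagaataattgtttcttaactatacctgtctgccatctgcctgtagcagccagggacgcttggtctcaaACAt

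The scaRNA sequences shown are the pair inside Atg16l1, which were both lower in EpiLC. Scarna6 (chr1:87784556-87784820, plus strand) and Gm25395 (chr1:87776938-87777209, plus strand) both carry C and D boxes, marked in capitals.
Scarna6: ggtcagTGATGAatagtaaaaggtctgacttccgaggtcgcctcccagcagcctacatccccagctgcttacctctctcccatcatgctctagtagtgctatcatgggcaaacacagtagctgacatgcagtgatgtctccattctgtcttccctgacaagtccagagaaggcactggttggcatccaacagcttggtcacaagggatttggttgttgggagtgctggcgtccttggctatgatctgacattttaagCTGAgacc
Gm25395: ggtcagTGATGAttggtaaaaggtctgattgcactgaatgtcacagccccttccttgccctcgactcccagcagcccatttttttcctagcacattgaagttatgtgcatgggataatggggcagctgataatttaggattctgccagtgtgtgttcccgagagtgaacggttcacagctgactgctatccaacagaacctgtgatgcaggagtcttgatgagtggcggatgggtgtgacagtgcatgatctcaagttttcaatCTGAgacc

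Counts were concentrated in a few RNAs. The 3 most abundant RNAs held 34.9% of the 609182 counts of all members. Snora73b, known as U17 or E1 and needed for processing of 18S ribosomal RNA, held 33.1% of the H/ACA counts at 1132 to 1486 CPM. CPM values are counts per 1e6 counts after TMM scaling, a library factor computed over all tested genes. Snora73a, its copy, was at 1.52 to 2.96 CPM. Snora73a overlapped a same-strand exon of another gene and Snora73b did not, so reads of Snora73a could be lost or counted elsewhere. Gm26447 of Eif4a2 followed with 660 to 1026 CPM, and Gm26448 of Rpsa with 287 to 371 CPM. Per 100 bases the mean levels of these RNAs were 618 CPM for Snora73b, 656 CPM for Gm26447 and 160 CPM for Gm26448. Thus Gm26447 and Snora73b exchanged places once length was taken into account.

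The leading H/ACA RNAs also included Gm26397 of Tomm20, Gm25791 of Taf1d, Snora78 of Snhg9 and Gm26205 of Rpl6. The mean level of Gm26397 was 103 CPM per 100 bases. The C/D counts were spread more evenly, with 10.4% of them in Snord22. Snord22, or U22, acts in 18S ribosomal RNA processing and lies in Snhg1. Of the 8 C/D RNAs with the highest mean CPM, the levels per 100 bases were 229 CPM for Gm22357, 206 CPM for Snord22, 184 CPM for Snord13 and 138 CPM for Snord14d of Hspa8. Snord14 RNAs are forms of U14, which acts in 18S processing. Of the same 8, Snord47, Snord15b of Rps3 and Gm25835 of Eif4a1 were at 136, 123 and 108 CPM per 100 bases, and Snord15a of Rps3 was at 66.0. Outside these 8, Snord49b, chosen after its value was seen, was at 114 CPM per 100 bases. Scarna2, a scaRNA outside any host, held 51.8% of the scaRNA counts at 235 to 321 CPM.

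The C/D class varied more between libraries of the same state than between states. It took 0.167% of the counts of ESC1 (95% Wilson interval 0.165 to 0.169), 0.143% of ESC2 (0.141 to 0.144) and 0.399% of ESC3 (0.396 to 0.403). It took 0.392% of EpiLC1 (0.388 to 0.396), 0.278% of EpiLC2 (0.275 to 0.281) and 0.170% of EpiLC3 (0.167 to 0.172). These intervals cover counting error only. ESC3 and EpiLC1 were high, EpiLC2 was intermediate, and ESC1, ESC2 and EpiLC3 were low, so the states overlapped. The group means were 0.236% ± 0.142 in ESC and 0.280% ± 0.111 in EpiLC (SD, n = 3 each).

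The H/ACA class was also highest in EpiLC1, ESC3 and EpiLC2, over a narrower range. Its lowest share was 0.342% in EpiLC3 (0.338 to 0.345) and its highest 0.459% in EpiLC1 (0.455 to 0.464). ESC3 had 0.448% (0.444 to 0.452), against 0.376% in ESC1 (0.373 to 0.378) and 0.353% in ESC2 (0.350 to 0.355). The group means were 0.392% ± 0.0499 and 0.405% ± 0.0594 (SD, n = 3 each). ScaRNAs ran from 0.0450% in EpiLC3 (0.0437 to 0.0462) to 0.0591% in ESC1 (0.0581 to 0.0602), and did not follow the C/D order. C/D counts per H/ACA count were 0.445, 0.405 and 0.891 in ESC1, ESC2 and ESC3, and 0.853, 0.670 and 0.496 in EpiLC1, EpiLC2 and EpiLC3. The 2 deepest libraries, ESC1 with 20124955 and ESC2 with 22879812 counts, had the 2 lowest C/D shares, and EpiLC3 with 11046331 counts had the next lowest. The part of depth was not tested. The difference in mean C/D share between states was 0.0434 percentage points with all members. It was 0.00494 percentage points without members in a same-strand exon of another gene. The share that these remaining members took is not given, so the sizes of the 2 differences cannot be compared. For C/D RNAs of 110 bases or less, the median log2 deviation from the mean of all libraries was also taken. It was 0.76 in ESC3 and 0.71 in EpiLC1 for the 47 free of such exons. For the 60 in such an exon it was 0.54 and 0.62. The part of exon overlap was not tested.

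**Figure D1:**
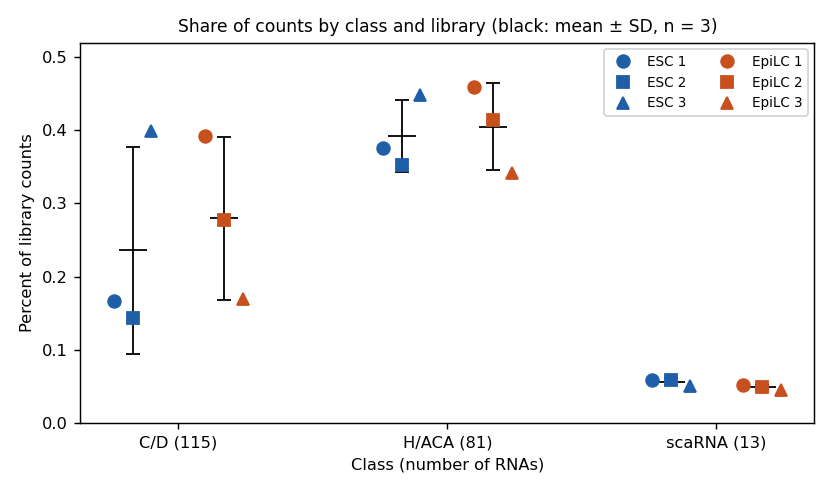
Percent of each library's counts (vertical axis) taken by C/D, H/ACA and scaRNA members (horizontal axis). Each point is 1 library, and black marks give the mean and SD of the 3 libraries of a state. The C/D points of ESC3 at 0.399% and EpiLC1 at 0.392% stand above the other libraries of their states, while the scaRNA points lie between 0.0450% and 0.0591%.

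The library differences lay mainly in the C/D RNAs of 110 bases or less and in the H/ACA RNAs of 150 bases or less. The 107 C/D RNAs of 110 bases or less summed to 760 CPM in ESC1, 743 CPM in ESC2 and 3151 CPM in ESC3. In EpiLC they summed to 2941, 1903 and 1017 CPM in EpiLC1, EpiLC2 and EpiLC3. ESC3 lay above both other ESC libraries for 84 of these 107 RNAs and below both for 17. The 8 C/D RNAs over 110 bases summed to 984, 729 and 848 CPM in ESC and to 878, 812 and 656 CPM in EpiLC. ESC3 stood between the other ESC libraries in this longer set. The 72 H/ACA RNAs of 150 bases or less summed to 2005, 1889 and 2841 CPM in ESC1, ESC2 and ESC3, and the 9 longer ones to 1917, 1748 and 1650 CPM. Length and class run together here, since 107 of 115 C/D RNAs and 1 of 81 H/ACA RNAs were at most 110 bases long, so length and class cannot be told apart across classes.

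Both differences between replicates were taken on log2(CPM + 0.1). For short C/D RNAs the difference of ESC3 from the mean of ESC1 and ESC2 had a median of 1.19 and ran from -1.15 to 3.14. The difference of EpiLC1 from EpiLC3 had a median of 1.01 and ran from -1.04 to 2.14. Across the 107 RNAs the differences in ESC and in EpiLC had a Spearman correlation of 0.84, and no library was shared between them. The RNAs share hosts and length, so this is a description. For the 11 members over 200 bases, the ESC3 difference had a median of -0.27 and was below 0 in 10 of them.

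The ESC3 difference also varied among the short C/D RNAs. It was at least 2-fold for 59 of them, whose median level was 13.9 CPM per 100 bases, and smaller for 48, whose median level was 3.48. The Spearman correlation with level per 100 bases was 0.47 over 107 RNAs, and with length it was 0.20. The level is the mean over all 6 libraries, ESC3 among them, so it is not independent of the difference. Of the 59 RNAs 31 lay in a same-strand exon of another gene, and of the 48 RNAs 29 did. The first 4 and the last 4 letters form the terminal stem of many C/D RNAs. The median difference was 1.71 for 13 RNAs with 0 Watson-Crick pairs among them and 1.41 for 21 RNAs with 1 pair. It was 0.65 for 18 RNAs with 2 pairs, 0.91 for 20 RNAs with 3 and 1.48 for 35 RNAs with 4. The Spearman correlation of the difference with the number of pairs was -0.03, and G-U pairs were not counted. Other genes of at most 110 bases (37 genes) had a median deviation from their 6-library mean of -0.26 in ESC3 and 0.32 in EpiLC1, on the log2 scale. The same median was 0.66 and 0.69 for short C/D RNAs and -0.01 in both libraries for 13157 protein-coding genes.

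**Figure D2:**
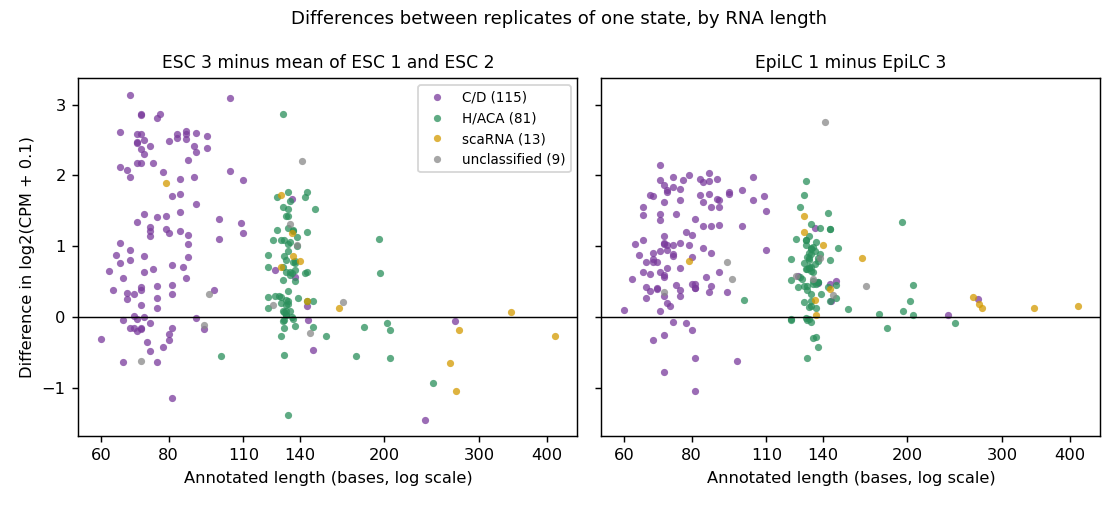
Difference in log2(CPM + 0.1) between replicates of 1 state (vertical axis) against annotated length in bases (horizontal axis, log scale). Each point is 1 RNA, coloured by class, with ESC3 against ESC1 and ESC2 on the left and EpiLC1 against EpiLC3 on the right. Most short C/D points lie above 0 in both panels, and on the left 10 of the 11 RNAs over 200 bases lie below 0.

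The comparison of EpiLC with ESC asked which of these RNAs changed as the cells left the naive state. With edgeR's quasi-likelihood test over all 14996 genes that passed the filter on low counts, 18 of the 215 members tested rose and 7 fell (adjusted p under 0.05). These are 11.6% of the members, against 64.6% of all genes tested, with 32.0% of genes higher and 32.6% lower. The members not tested were Gm24837, Snord38a and Gm22858, all C/D RNAs near the limit. By class, 8 of 112 C/D RNAs rose and 1 fell, 9 of 81 H/ACA RNAs rose and 1 fell, and 1 of 13 scaRNAs rose while 4 fell. Among the called members 72.0% were higher, and this share was 84.4% with upper quartile scaling (27 higher, 5 lower) and 87.1% with library totals (27 higher, 4 lower). Among all called genes the share that was higher was 49.5%, 53.0% and 54.4% in the same order. The share of all tested genes called under the other scalings is not given here. The median log2 fold change was 0.32 over C/D RNAs, 0.33 over H/ACA RNAs and 0.07 over scaRNAs, against 0.01 over all genes. The CPM values of the states did not overlap for 31 members (14.4%), against 70.2% of all genes tested.

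DESeq2's Wald test called 15 members higher and 6 lower, against 30.0% and 31.1% of all genes. Replicate spread was wider for the members than for all genes. The median SD of log2 CPM between C/D replicates was 0.70 in ESC and 0.52 in EpiLC, against 0.17 and 0.10 over all genes. The 95% interval of the fold change lay within 2-fold in either direction for 91 of 215 members and for 8170 of 14996 genes. A smaller share of calls therefore does not show that the other 190 members were stable. Without ESC3, 112 members rose and 15 fell of 216 tested, or 58.8%, against 76.7% of all genes, 38.0% higher and 38.7% lower. Of the short C/D RNAs 63 were then higher, among them Gm22357 with a log2 fold change of 2.01 and Snord47 with 2.06. Without any other single library, 7 to 22 members rose and 3 to 8 fell, counts for which the share of all genes is not given here. The 8 members called in every one of these 6 settings were Snord64, Gm23787, Gm22620, Gm24452 and Gm24455, all higher, and Scarna6, Gm25395 and Gm24336, all lower. Of these, Snord64, Gm22620, Gm24452 and Gm24455 overlapped a same-strand exon of another gene, so reads of that gene could enter their counts. Gm23787 and the members that were lower did not overlap such an exon.

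**Figure D3:**
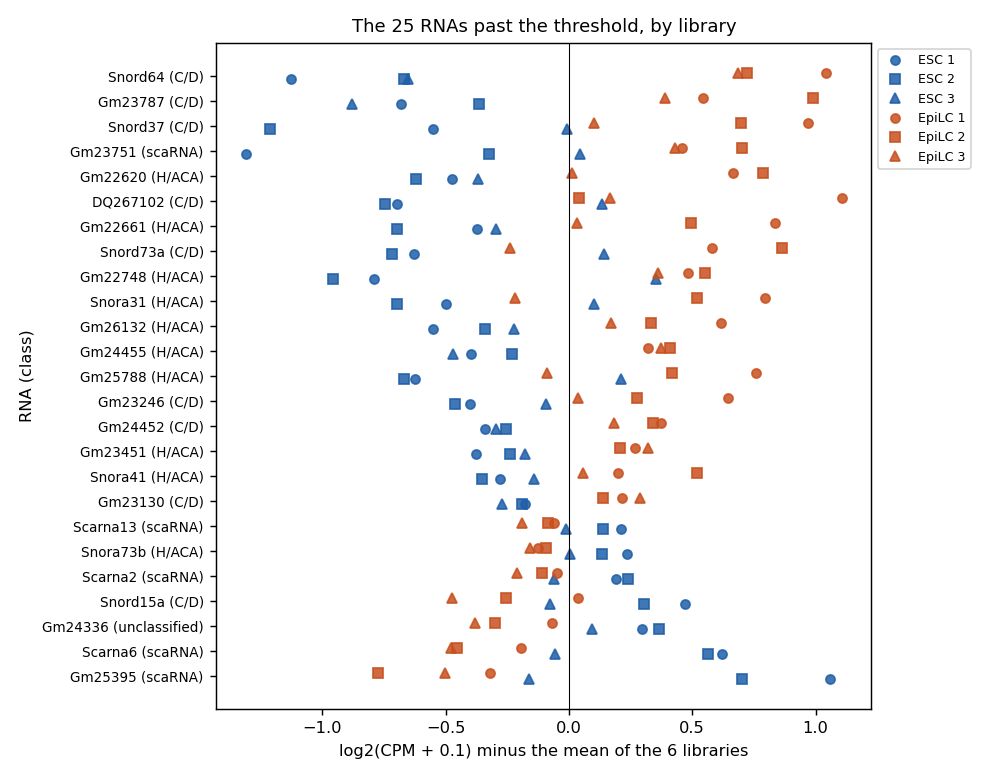
The 25 RNAs past the threshold (vertical axis), with each library's log2(CPM + 0.1) minus the mean of the 6 libraries (horizontal axis). Blue points are ESC and orange points EpiLC, with a marker shape for each replicate. The states separate fully for Snord64, Gm24452 and Scarna6, while ESC3 lies among the EpiLC points for Gm25788.

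Among the RNAs that rose, the largest change was in Snord64. Snord64 is a C/D RNA of the imprinted Snrpn region, whose snoRNAs are expressed from the paternal chromosome and include orphan RNAs with no known ribosomal target. It was at 1.35, 1.89 and 1.92 CPM in ESC1, ESC2 and ESC3 and at 6.42, 5.13 and 5.0 CPM in EpiLC1, EpiLC2 and EpiLC3. The states did not overlap, and the log2 fold change was 1.69 ± 0.21 (SE; edgeR, adjusted p = 0.000186). Its host Gm38393 rose from 7.4 to 8.87 CPM in ESC to 35.4 to 43.8 CPM in EpiLC, a log2 fold change of 2.24 ± 0.12 (edgeR, adjusted p = 1.75e-06). Snord64 lies in an exon of that gene on the same strand, so reads of either could be counted for the other. Of the same region, 17 rows named Snord116 were at 0 in all libraries, which allows up to 3 counts in a library.

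Gm23787, a C/D RNA without a host, had 0.415, 0.541 and 0.348 CPM in ESC1, ESC2 and ESC3 and 1.10, 1.54 and 0.982 CPM in EpiLC1, EpiLC2 and EpiLC3. The states did not overlap (log2 fold change 1.41 ± 0.32 SE, edgeR adjusted p = 0.0051), at 64 counts in all. Snord37 of Eef2 had 0.986, 0.586 and 1.48 CPM in ESC and 3.01, 2.48 and 1.61 CPM in EpiLC. Its call (log2 fold change 1.32 ± 0.37 SE, edgeR adjusted p = 0.0134) was lost without ESC2, EpiLC1 or EpiLC2, with an adjusted p of up to 0.0596. The scaRNA Gm23751 of Chd4 rose from 0.519 to 1.48 CPM to 1.96 to 2.40 CPM, and its call was lost without ESC1 or any 1 EpiLC library (edgeR, adjusted p up to 0.0886). DQ267102, inside the imprinted host Rian, had 0.934, 0.901 and 1.74 CPM in ESC and 3.51, 1.62 and 1.79 CPM in EpiLC. These states overlapped, and the call at an edgeR adjusted p of 0.0474 was lost without ESC1, ESC2, EpiLC1 or EpiLC3 (up to 0.196). Rian itself rose from 303 to 324 CPM to 665 to 683 CPM (log2 fold change 1.11). Its span held 13 snoRNA rows, of which 6 had counts and 2 were members.

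Gm22620, an H/ACA RNA of Taf1d, completed the 6 largest increases. It had 4.05, 3.65 and 4.36 CPM in ESC and 9.03, 9.84 and 5.71 CPM in EpiLC (log2 fold change 1.04 ± 0.22 SE, edgeR adjusted p = 0.0034). The 12 other RNAs that rose were Gm22661, Snord73a, Gm22748, Snora31, Gm26132, Gm24455, Gm25788, Gm23246, Gm24452, Gm23451, Snora41 and Gm23130, with log2 fold changes from 0.43 to 1.02. Apart from Gm24455 and Gm24452, each of these lost its call when at least 1 library was left out, with the highest adjusted p between 0.0515 for Gm23130 and 0.221 for Snord73a. Their values were known when they were named, except for Gm24455, Gm23246 and Gm24452.

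Among the RNAs that fell, the largest changes were in the scaRNAs of Atg16l1. Scarna6 had 96.3, 92.8 and 60.3 CPM in ESC1, ESC2 and ESC3 and 54.7, 45.7 and 45.0 CPM in EpiLC1, EpiLC2 and EpiLC3. Gm25395 had 54.2, 42.3 and 23.2 CPM in ESC and 20.8, 15.1 and 18.3 CPM in EpiLC. ESC3 was the lowest ESC library for both, and the states did not overlap. The log2 fold changes were -0.79 ± 0.17 for Scarna6 (edgeR, adjusted p = 0.00434) and -1.16 ± 0.28 for Gm25395 (edgeR, adjusted p = 0.00686). Atg16l1, which encodes an autophagy protein, fell by less, with a log2 fold change of -0.29 ± 0.08 (edgeR, adjusted p = 0.0143, or 0.061 without EpiLC3). The log2 ratio of RNA to host was lower in EpiLC by 0.47 for Scarna6 and 0.78 for Gm25395 without overlap, at the smallest exact permutation p this design allows (0.1, two-sided, n = 3 against 3).

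Gm24336, an RNA of no class inside Cwf19l1, had 26.9, 28.2 and 23.4 CPM in ESC and 20.9, 17.8 and 16.8 CPM in EpiLC (log2 fold change -0.51 ± 0.12 SE, edgeR adjusted p = 0.00527). Snord15a had 132, 118 and 90.2 CPM in ESC and 97.6, 79.7 and 68.5 CPM in EpiLC. The states overlapped between ESC3 and EpiLC1, and the call at an edgeR adjusted p of 0.0329 was lost without ESC1, ESC2, EpiLC2 or EpiLC3 (up to 0.115). Snord15b, in the same host Rps3, had 232, 156 and 185 CPM in ESC and 176, 176 and 150 CPM in EpiLC and did not pass. Snora73b went from 1486, 1385 and 1265 CPM in ESC to 1157, 1184 and 1132 CPM in EpiLC without overlap (log2 fold change -0.25 ± 0.07 SE, edgeR adjusted p = 0.0154, or 0.0611 without EpiLC3). Scarna2 (log2 fold change -0.25) and Scarna13 of Snhg10 (-0.23) completed the list. Both kept their calls in only 1 of the 6 settings that left out a library, the one without ESC3, with edgeR adjusted p up to 0.122 and 0.13. Gm22009 of Kpna4, the second scaRNA by level, had 75.4, 74.3 and 78.5 CPM in ESC and 85.8, 84.2 and 79.0 CPM in EpiLC and did not pass.

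Host genes were then set beside the RNAs they hold. A host on the same strand was found for 207 of the 218 RNAs, in 119 genes, and 104 RNAs overlapped a same-strand exon of another gene. Gas5, a noncoding host of 9 C/D RNAs, was at 244, 255 and 241 CPM in ESC and 221, 224 and 215 CPM in EpiLC. Its call as lower (log2 fold change -0.16, edgeR adjusted p = 0.0319) was lost in each of the 5 settings that left out a library other than ESC3 (up to 0.11). All 9 of its RNAs lay in a same-strand Gas5 exon of some annotated isoform.

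Within Gas5 the size and direction of the library differences varied from RNA to RNA. Gm22357 had 55.2, 57.5 and 336 CPM in ESC1, ESC2 and ESC3 and 347, 238 and 105 CPM in EpiLC1, EpiLC2 and EpiLC3. Snord47 had 28.8, 28.2 and 207 CPM in ESC and 193, 119 and 50.1 CPM in EpiLC. Both were high in ESC3 and EpiLC1, and their states overlapped. In contrast, Gm23212 had 24.2, 24.5 and 19.7 CPM in ESC and 29.3, 24.8 and 27.4 CPM in EpiLC, with every EpiLC value above every ESC value (edgeR, adjusted p = 0.0949, not called). Snord78 had 17, 16.1 and 10.6 CPM in ESC and 15.4, 12.7 and 12.7 CPM in EpiLC. ESC3 was the lowest library for both. These 4 RNAs, printed above, are 60 to 83 bases long and have the same host.

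The other Gas5 RNAs were Gm26224, Gm22489, Mir5117, Snord80 and Gm25789. Mir5117, annotated as a snoRNA under a microRNA symbol, had 3.48, 3.02 and 11.1 CPM in ESC and 10.7, 7.44 and 4.38 CPM in EpiLC, with ESC3 and EpiLC1 the highest libraries, as for Gm22357. Gm26224 ran from 8.19 to 11 CPM, Gm22489 from 10.1 to 17.3, Gm25789 from 4.28 to 7.83 and Snord80 from 0.523 to 1.58 CPM over the 6 libraries. The ESC3 difference was at least 2-fold for 3 of the 9 Gas5 RNAs and ran from -1.15 to 2.86 on the log2 scale, while that of Gas5 was -0.05. Over the 50 tested hosts of short C/D RNAs the ESC3 difference ran from -0.82 to 0.52 with a median of -0.14, and 0 hosts were 2-fold higher. Of these hosts 16 held short C/D RNAs on both sides of the 2-fold limit.

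Snhg1 and Taf1d each held 7 members. Snhg1, another noncoding host, rose from 143, 133 and 120 CPM in ESC to 161, 161 and 157 CPM in EpiLC (log2 fold change 0.28, edgeR adjusted p = 0.0114). Of its C/D RNAs, Gm24452 rose from 7.42, 7.88 and 7.67 CPM to 12.2, 12 and 10.7 CPM without overlap (log2 fold change 0.60 ± 0.12 SE, edgeR adjusted p = 0.00232). Gm23246 rose with a log2 fold change of 0.69, a call lost without ESC1, ESC2, EpiLC1 or EpiLC2 (edgeR, adjusted p up to 0.0816). Snord22 had 220, 169 and 304 CPM in ESC and 331, 313 and 222 CPM in EpiLC, and Gm24453 had 11.6, 11.7 and 31.2 CPM and 42.9, 26.0 and 13.6 CPM. Both overlapped between states and did not pass, as did Gm25894, Gm22744 and Gm22680.

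Taf1d, which encodes a subunit of the factor that starts RNA polymerase I transcription, rose with a log2 fold change of 0.34 (edgeR, adjusted p = 0.0229, or up to 0.0744 without EpiLC2 or EpiLC3). Of its 5 H/ACA RNAs, Gm24455 rose from 4.41, 4.96 and 4.18 CPM to 7.33, 7.78 and 7.59 CPM without overlap (log2 fold change 0.73 ± 0.14 SE, edgeR adjusted p = 0.00201). Gm22620 is described above, and Gm25791, Gm23455 and Gm22579 did not pass. Of its C/D RNAs Gm24299 and Gm24357, Gm24299 had 2.96, 2.48 and 16.8 CPM in ESC and 20.5, 10.8 and 6.61 CPM in EpiLC, while the H/ACA RNA Gm22579 had 10.7, 9.60 and 3.83 CPM and 9.23, 8.72 and 9.73 CPM. ESC3 was the highest ESC library for Gm24299 and the lowest for Gm22579 within the same host.

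Eif4a2, which encodes a translation initiation helicase, was lower in EpiLC while none of its RNAs passed the test. It fell from 893, 803 and 891 CPM in ESC to 417, 428 and 376 CPM in EpiLC, a log2 fold change of -1.08 ± 0.07 (edgeR, adjusted p = 6.54e-06). Its leading RNA Gm26447 had 846, 844 and 1026 CPM in ESC and 896, 809 and 660 CPM in EpiLC. The states overlapped, and the log2 fold change of -0.20 ± 0.12 did not pass (edgeR, adjusted p = 0.192). The other 4 RNAs of this host, chosen with their values in view, were the H/ACA RNAs Gm24201, Gm24616 and Snora81 and the C/D RNA Snord2. Their log2 fold changes were 0.19, 0.07, 0.14 and -0.27, and none passed the test (edgeR, adjusted p from 0.136 to 0.693).

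The log2 ratio of RNA to host was higher in every EpiLC library than in every ESC library for all 5 Eif4a2 RNAs. The difference in mean log2 ratio was 0.88 for Gm26447, 1.29 for Gm24201, 1.15 for Gm24616, 1.26 for Snora81 and 0.82 for Snord2. The exact two-sided permutation p of each was 0.1, the smallest for 3 against 3 libraries, so the design cannot reach the threshold. The 5 ratios share the same host counts and are not independent. Each of these RNAs overlapped a same-strand Eif4a2 exon, so host reads could enter their counts.

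**Figure D4:**
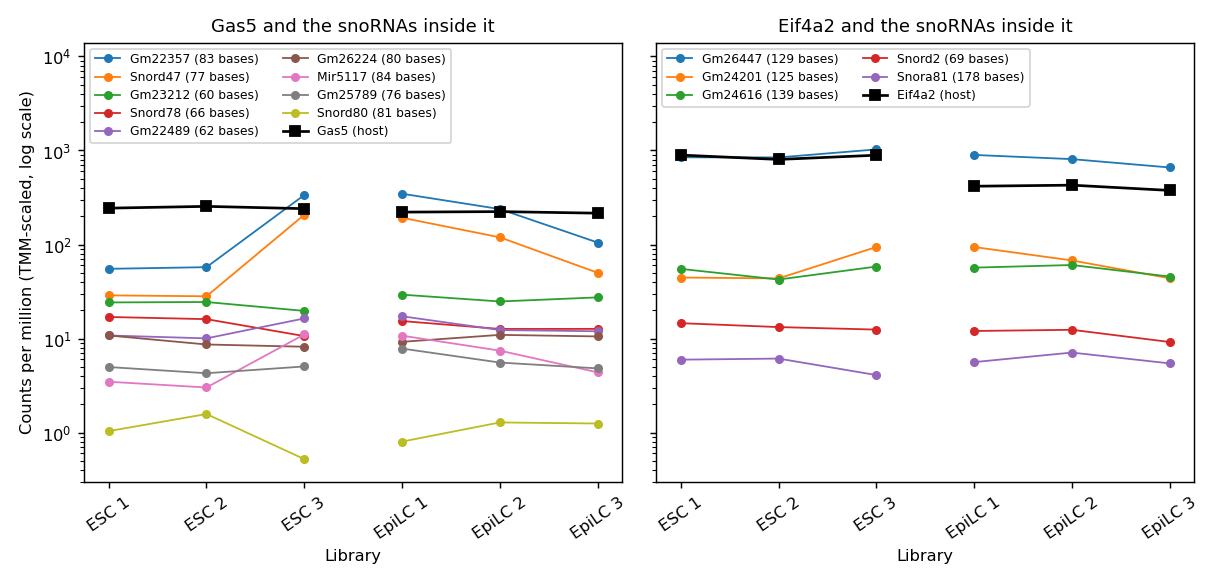
CPM (vertical axis, log scale) in each library (horizontal axis) for Gas5 with its 9 snoRNAs on the left and Eif4a2 with its 5 snoRNAs on the right. Black squares are the host, coloured points the snoRNAs, and lines join the libraries of 1 state for the eye only. Gm22357 and Snord47 stand highest in ESC3 and EpiLC1 while Gas5 stays between 215 and 255 CPM. Eif4a2 is lower in every EpiLC library, while the values of Gm26447 overlap between the states.

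Over all hosts, 204 RNAs and their 118 hosts were both tested. Of the hosts 33 rose, 20 fell and 65 did not pass, or 44.9% called against the 64.6% of all genes. Of the 17 paired RNAs that rose, 10 had a host that rose, 2 a host that fell and 5 a host that did not pass. Where an RNA overlaps a same-strand exon of its host, host reads could enter its counts. Of the 6 that fell, 2 had a host that fell and 4 a host that did not pass. RNA and host changed with the same sign in 122 of 204 pairs, and the Spearman correlation of their fold changes was 0.38, over pairs that share hosts and libraries. The RNA did not pass while the host rose in 44 pairs and while the host fell in 38 pairs. The ratio to the host did not overlap between states in 29 of the 204 pairs, 18 higher and 11 lower in EpiLC. Such separation of a single pair has an exact two-sided permutation p of 0.1, the smallest possible here. Pairs with unchanged ratios would thus separate at a rate of 0.1, and the pairs share hosts and libraries, so this count is only a description. The median ratio to host was -4.37, -4.52 and -3.54 on the log2 scale in ESC1, ESC2 and ESC3 and -3.71, -3.90 and -4.28 in EpiLC1, EpiLC2 and EpiLC3, the order of the C/D share.

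**Figure D5:**
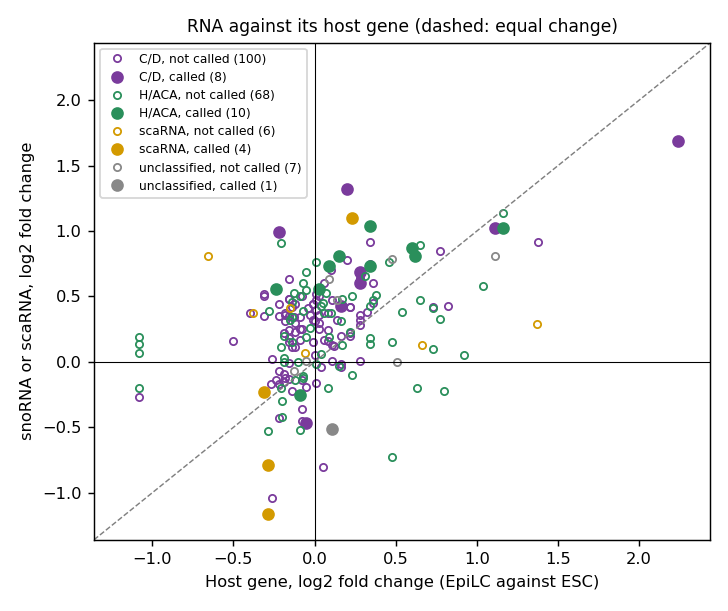
Log2 fold change, EpiLC against ESC, of each snoRNA or scaRNA (vertical axis) against that of its host gene (horizontal axis) for 204 pairs. Filled points are RNAs past the threshold, colours give the class, and the dashed line marks equal change. The 5 open points farthest left are the Eif4a2 RNAs, near 0 on the vertical axis at -1.08 on the horizontal axis.

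Several members act in ribosomal RNA processing. Snord13, or U13, which acts in 18S maturation and has no host here, had 52.9, 50.5 and 443 CPM in ESC and 320.0, 202 and 81.9 CPM in EpiLC. Snord14d and Snord14e of Hspa8 had 40.6, 41.1 and 234 CPM and 14.0, 13.6 and 83.9 CPM in ESC, and 216, 126 and 57.0 CPM and 71.8, 43.5 and 24.2 CPM in EpiLC. Snord118, or U8, which acts in 28S and 5.8S maturation, had 3.48, 2.34 and 9.32 CPM in ESC and 10.4, 7.78 and 4.29 CPM in EpiLC. All 4 were high in ESC3 and EpiLC1, overlapped between states and did not pass (edgeR, adjusted p from 0.261 to 0.881). Snora74a, or U19, had 15.6, 13.1 and 30.8 CPM in ESC and 41.1, 30.6 and 16.2 CPM in EpiLC and did not pass. Terc, the telomerase RNA, which ends in an H/ACA domain and is no member, fell from 66.0 to 100.3 CPM to 57.2 to 68.7 CPM (log2 fold change -0.45, edgeR adjusted p = 0.0278), with ESC3 inside the EpiLC range. That call was lost without ESC1, ESC2, EpiLC2 or EpiLC3 (up to 0.0991). No row was found under the names Snord115, Snord113, Snord114 or Snord3, so these families were not analysed by name.

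At the limit on counts, the RNAs just inside had 64 (Gm23787), 62 (Gm24837) and 61 (Snord38a) counts in all. Those just outside had 55 (Gm24507), 53 (Mir3096) and 51 (Scarna8). A near-identical copy, of at least 90% identity, was annotated for 57 members, and 5 members overlapped an exon on the other strand. Counts of these RNAs are uncertain.

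The genes for snoRNP proteins and assembly factors changed in both directions. Of the 35 listed genes 5 rose, 12 fell and 18 did not pass, against 32.0% of all genes higher and 32.6% lower, with a median log2 fold change of -0.05 against 0.01 over all genes. The C/D core genes Fbl, Nop56, Nop58 and Snu13 did not pass, and their summed level was 700 to 797 CPM in ESC and 724 to 783 CPM in EpiLC. Among the H/ACA core genes, Dkc1, the pseudouridine synthase, fell from 358, 368 and 282 CPM to 192, 213 and 216 CPM (log2 fold change -0.70, edgeR adjusted p = 0.000552). Gar1 rose from 18.1, 19.1 and 18.9 CPM to 37.7, 31.3 and 34.0 CPM (log2 fold change 0.88, edgeR adjusted p = 8.72e-05). Nhp2 rose by 0.31 on the log2 scale, a call lost without EpiLC2 or EpiLC3 (edgeR, adjusted p up to 0.0989), and Nop10 did not pass.

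Naf1, which holds the Gar1 position in H/ACA particles during assembly, rose from 23.3, 21.3 and 25.5 CPM to 53.4, 55.8 and 60.3 CPM (log2 fold change 1.28, edgeR adjusted p = 9.23e-06). Its partner in assembly Shq1, a dyskerin chaperone, fell with a log2 fold change of -0.34. The C/D assembly genes Nufip1 (-0.49), Ruvbl2 (-0.55) and Pih1d1 (-0.34) and the nucleolar gene Nop53 (-0.40) also fell, while Znhit3, Znhit6, Ruvbl1 and Rpap3 did not pass. Coil, which encodes the Cajal body scaffold coilin, had the largest change of the list. It fell from 181, 180 and 212 CPM to 52.1, 52.5 and 55.5 CPM, a log2 fold change of -1.84 ± 0.08 (edgeR, adjusted p = 8.29e-07). Wrap53, which carries scaRNAs and Terc to Cajal bodies, fell by 0.60 on the log2 scale, and Tgs1, which caps independently transcribed snoRNAs, fell by 0.27. Tcof1 fell by 0.49, and Nolc1, Smn1, Ncl and Npm1 did not pass.

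Of the U3 particle genes, Mphosph10 rose (log2 fold change 0.43) and Rrp9 fell (-0.67), while Imp3 and Imp4 did not pass, nor did the acetylation partners Nat10 and Thumpd1. Of the genes that free snoRNAs from introns, the exonuclease gene Xrn2 fell (-0.74) and the intron-binding helicase gene Aqr rose (0.35), while the debranching enzyme gene Dbr1 did not pass. All calls of this list other than that of Nhp2 held without each single library. The other structured RNAs examined, Rmrp, Rpph1 and Rn7sk, fell with log2 fold changes of -0.70, -0.83 and -0.31, and for Rmrp and Rpph1 ESC3 lay closer to the EpiLC values than did ESC1 or ESC2. The call of Rn7sk was lost without each library other than ESC3 (edgeR, adjusted p up to 0.117).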

How the data were processed

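RNA-seq libraries of 3 ESC and 3 EpiLC samples were analysed. The deposited table holds raw read counts per Ensembl gene, 1 column per library; cutadapt, STAR, featureCounts and DESeq2 with build mm10 are named per the submitters' processing notes. Strand setting, treatment of multi-mapping reads and versions: not given in the sources used here. Because of this, reads that fit several copies, a host exon or the other strand could be lost or counted elsewhere.

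Of 51918 rows, 92 spike-in rows were at 0 and left out, and 51633 of 51826 Ensembl rows matched GENCODE M21. Library totals were 9710410 to 22879812 counts. C/D, H/ACA or scaRNA class came from biotype, symbol or sequence boxes, a rule set after the files were seen. The host was the shortest named same-strand gene that spans the RNA. Counts were tested with edgeR 4.0.16 (R 4.3.3) by glmQLFTest, with TMM scaling and the default filterByExpr, two-sided, with Benjamini-Hochberg adjustment over all genes and a threshold of 0.05. Samples were grouped by title, and all 6 entered 1 fit. Shares and ratios were described per library with no test. The fit was tested on simulated data. Alternatives were DESeq2 1.42.0, other scalings, no filter, a replicate block and leaving out each library.

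Named genes were the 8 C/D and 8 H/ACA RNAs and 4 scaRNAs with the highest mean CPM, the 6 largest called changes in each direction with at least 1 CPM in the higher group, listed families, RNAs at the count limit, hosts of named RNAs, the 3 hosts with most members, and the snoRNP genes. Members and lists were chosen with earlier results of these data known. Of these, 1 H/ACA RNA and its host are not reported here.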

Additional observations from a re-analysis of the deposited data

How the results depend on the processing

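The 18 members called higher became 11 with a replicate block and 7 to 112 when 1 library was left out. The 7 called lower became 4 with library totals and 3 to 15 when 1 library was left out. The highest of both came without ESC3, where 76.7% of all genes were called. For library totals and the other runs without 1 library the share of all genes is not given, so those counts have no comparison. With TMM factors computed on members of 110 bases or less, a scaling added after seeing the data, 0 members were called higher and 0 lower (edgeR), 1 of 215 had an unadjusted p under 0.05, and 7.8% of all genes were called. Its factors come from the members themselves, and it moved the median log2 fold change of all genes by -0.44. The other scalings moved that median by at most 0.07. DESeq2's test called 15 members higher and 6 lower.

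Of the snoRNP genes, 5 higher became 3 without a filter and 4 to 5 without 1 library, and 12 lower became 12 to 19. With the added scaling they were 0 and 1. The cause of these changes was not tested. The differences between states in C/D share, H/ACA share, C/D to H/ACA ratio and ratio to host moved by less than 1 SD between replicates in every alternative run. Each SD was larger than the difference itself, for the C/D share 0.127 against 0.0434 percentage points. Staying within 1 SD therefore does not show that the differences were stable. Both share differences changed sign in some of the runs without 1 library: the C/D share difference ran from -0.0126 to 0.125 percentage points and the H/ACA difference from -0.0139 to 0.0448.

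Same-numbered samples did not deviate together (correlations -0.115, 0.008 and -0.184), so the replicate numbers were not taken to pair them. The replicate block gave 11 members higher and 7 lower, against 30.6% and 31.0% of all genes.

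Under the added scaling 33 named genes changed sign, and these are not listed here. In the other alternatives, the named genes that changed sign were not called with all libraries. With library totals they were Nop58 0.06, Dbr1 0.04, Snord80 0.06, Nat10 0.02, Rps3 0.02 and Npm1 0.04. With upper quartile scaling they were Dbr1 0.02, Snord80 0.04, Npm1 0.02 and Nop58 0.04. With TMM on protein-coding genes they were Snord80 0.01 and Nop58 0.01. Without a filter they were Nop56 -0.06, Imp4 -0.03, Snora78 -0.02, Gm22680 -0.07 and Znhit6 -0.06. Snord80 was 0.06 with DESeq2 and 0.04 with the block. Leaving out 1 library gave log2 fold changes of -0.35 to 1.94 for Snord13, -0.18 to 1.68 for Snord14d, -0.03 to 2.06 for Snord47 and -0.08 to 1.73 for Snord14e. It gave -0.07 to 0.18 for Snora78, 0.00 to 0.39 for Gm22489, -0.25 to 0.41 for Snord80, -0.11 to 0.09 for Gm22680, -0.15 to 0.35 for Gm22579 and -0.11 to 0.61 for Gm24201. For Snora81 it gave -0.01 to 0.22, for Gm24616 -0.07 to 0.17, for Nolc1 -0.01 to 0.19, for Nop58 -0.08 to 0.02, for Imp4 -0.02 to 0.09 and for Nat10 -0.20 to 0.02. For Nop56 it gave -0.06 to 0.06, for Dbr1 -0.10 to 0.05, for Fbl -0.03 to 0.46, for Npm1 -0.11 to 0.01 and for Znhit6 -0.05 to 0.05.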

Other observations

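Other hosts, chosen after their values were seen, are given here with the difference of ESC3 from ESC1 and ESC2 for their C/D RNAs. All 4 RNAs of Rpl13a, a ribosomal protein gene, were at least 2-fold higher in ESC3 than in the mean of ESC1 and ESC2. Snord32a of Rpl13a had 17.7, 16.4 and 99.2 CPM in ESC1, ESC2 and ESC3 and 80.8, 47.8 and 20.9 CPM in EpiLC1, EpiLC2 and EpiLC3, and it overlaps no same-strand exon. Rpl13a itself had 109, 101 and 97.7 CPM in ESC and 117, 122 and 119 CPM in EpiLC. All 3 Hspa8 RNAs, which are forms of U14, differed by 2.51 to 2.60 on the log2 scale, against -0.16 for Hspa8. In Rpl23a 0 of 3 C/D RNAs reached 2-fold, and its RNAs ran from -0.17 to 0.76, against -0.82 for Rpl23a.

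Nop56, which encodes a C/D core protein, was itself a host of 4 C/D RNAs and 1 H/ACA RNA. Snord110 in it had 5.29, 5.59 and 48.8 CPM in ESC and 39.3, 26.3 and 12 CPM in EpiLC, while Gm23187, also of the C/D class, had 5.45, 5.0 and 7.67 CPM and 5.82, 5.47 and 4.55 CPM. Among the 9 RNAs of no class, Gm23262 inside Eif4g2 held 84.6% of the counts. It had 252, 206 and 263 CPM in ESC and 280, 236 and 206 CPM in EpiLC, and its log2 fold change was 0.00 ± 0.13 (edgeR, adjusted p = 0.981).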
